A study of Homo sapiens with 12 samples.

Results

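The genes described here encode the signal subunits of the B-cell receptor and the first kinases and adaptor that act on it. They were chosen by symbol, as 9 of the 26210 genes in an FPKM table of RNA-Seq libraries (FPKM, fragments scaled for transcript length and library size): CD79A, CD79B, MS4A1, CD22, BLNK, BTK, SYK, LYN and BLK. All 9 were found, and all 9 were among the 14679 genes that reached 1 FPKM in at least 2 libraries and were tested. MS4A1 passed this filter only through the 2 Namalwa libraries. CD79A, CD79B and BTK passed it only with the control lines or PMA-treated Reh. Some difference between the cHL lines and the conditions that admitted these genes was thus built in by the filter. The study set 3 classical Hodgkin lymphoma (cHL) cell lines, KM-H2, L1236 and L428, against B-cell lines without Hodgkin lymphoma, the Burkitt lymphoma line Namalwa and the pro-B lymphoblastic leukaemia line Reh, to ask how far long terminal repeat elements take part in the gene expression programme of cHL. A further condition was Reh treated with 2 ng/ml of the phorbol ester PMA, an activator of protein kinase C that serves as an inflammatory stimulus. The study names more than one length of PMA treatment, and which of them applies to these libraries is not stated in the sources used here. Each of the 6 conditions is 1 established cell line with 2 libraries of ribosome-depleted, stranded total RNA. The libraries are called 0 and 1 here, after the suffix of their columns in the table, which is not the replicate number of the sample labels. All lines other than treated Reh were untreated. The cHL lines were grown in IMDM and the control cell lines in RPMI, so the medium cannot be told apart from the type of line.

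The B-cell receptor is a membrane immunoglobulin that cannot signal by itself. Its partners CD79A and CD79B carry the tyrosine motifs that the Src-family kinases LYN and BLK phosphorylate and that SYK then binds. SYK phosphorylates the adaptor BLNK, which brings BTK to phospholipase C gamma and opens calcium signalling. CD22 is an inhibitory lectin of the B-cell surface, which LYN phosphorylates, and MS4A1 is the surface protein CD20, the target of rituximab. Hodgkin and Reed-Sternberg (HRS) cells, the tumour cells of cHL, derive from germinal centre B cells and are known for losing much of the B-cell programme.

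The promoters of CD79A, BLNK and BTK are shown because all of these genes were low in the cHL lines, while with PMA in Reh BLNK was called lower and CD79A and BTK were not called. The sequences are from a RefSeq promoter table and were each found once in GRCh37, the build of the deposited table (hg19). They are the 250 bases before the transcription start of the promoter table, written 5′ to 3′ on the strand of the gene. They lie at chr19:42381099-42381348 on the plus strand for CD79A, at chr10:98031327-98031576 on the minus strand for BLNK and at chrX:100645785-100646034 on the minus strand for BTK. Capitals mark matches, on either strand, to GGAAGT, a core bound by ETS-family factors, and to CCCNNGGG, a core bound by EBF1.
CD79A: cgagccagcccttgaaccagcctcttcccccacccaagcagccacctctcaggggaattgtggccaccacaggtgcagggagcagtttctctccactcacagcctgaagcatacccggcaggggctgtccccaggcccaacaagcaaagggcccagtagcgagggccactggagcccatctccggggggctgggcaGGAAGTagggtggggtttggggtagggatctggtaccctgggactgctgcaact
BLNK: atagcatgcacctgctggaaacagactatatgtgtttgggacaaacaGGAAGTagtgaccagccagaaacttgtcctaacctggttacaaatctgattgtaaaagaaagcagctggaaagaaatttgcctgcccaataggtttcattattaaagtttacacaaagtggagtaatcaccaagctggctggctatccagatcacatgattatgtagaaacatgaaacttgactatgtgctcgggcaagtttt
BTK: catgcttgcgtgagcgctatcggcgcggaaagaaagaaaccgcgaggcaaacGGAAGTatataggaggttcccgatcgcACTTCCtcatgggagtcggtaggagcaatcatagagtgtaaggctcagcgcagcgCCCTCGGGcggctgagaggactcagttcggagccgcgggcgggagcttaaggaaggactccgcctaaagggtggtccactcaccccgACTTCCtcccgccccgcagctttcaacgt

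GGAAGT was present, on either strand, in 4 of the 8 promoter windows that the table holds for 5 of the 9 members (CD79A, CD22, BLNK, BTK and SYK) and in 19.5% of all 35116 windows. It began at position -54 from the start in CD79A, at -203 in BLNK, and at -80 and -48 in a SYK window. The BTK window shown held it at -198 and, on the other strand, at -171 and -29. CCCNNGGG was present in 1 of the 8 windows, the BTK window shown, at -116, and in 17.1% of all windows. The octamer ATGCAAAT was present in 0 of the 8 and 1.63% of all. These motifs do not overlap in the windows shown. The base composition of the promoters shown differed: 64.0% GC with 4 CpG in CD79A, 40.4% with 1 CpG in BLNK and 60.4% with 24 CpG in BTK, where the median window had 58.0% and 11. Another BTK window, not shown, had 50.4% with 2 CpG. The matches are a description of letters. No window was used for CD79B, MS4A1, LYN or BLK.

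CD79A (chr19:42381349-42385439, plus strand, GRCh37) and CD22 (chr19:35810164-35838264, plus) lie on the same chromosome. CD79B is at chr17:62006098-62009696 (minus), MS4A1 at chr11:60223319-60238225 (plus), BLNK at chr10:97948927-98031344 (minus), BTK at chrX:100604326-100645784 (minus) and SYK at chr9:93564069-93660831 (plus). LYN (chr8:56792394-56926728) and BLK (chr8:11344403-11422108) are both on the plus strand. The values are for whole genes. These spans come from another annotation than the promoter windows, and the BLNK window reaches into the BLNK span given here.

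The labels of the lines were checked with marker genes. TNFRSF8, the CD30 gene that marks HRS cells, was at 19.1 to 63.7 FPKM in the 6 cHL libraries and at most 0.505 FPKM in the other libraries. The summed FPKM of 6 T-cell markers was 17.8 to 26.7 in KM-H2, where CD3D stood at 13.5 and 22.5 FPKM and CD3G at 3.25 and 2.85 while CD3E, TRAT1 and CD247 were at 0 to 0.342, and at most 6.88 in the other conditions. Summed over 6 Hodgkin markers the FPKM was 133 to 1528 in the cHL lines, at most 16.7 in the untreated controls and up to 60.7 with PMA. CCL22 and CSF1R did not follow this sum, and neither was called between the cHL and control lines. CCL22 was listed at 0 in both KM-H2 libraries. CSF1R was at 1.13 and 2.05 FPKM in KM-H2 and at 11.8 and 11.2 FPKM with PMA. Summed over the 5 B-lineage markers that are not members, it was 10.5 to 18.6 in KM-H2, 43.4 to 64.1 in L1236, 5.08 to 6.61 in L428, 232 to 244 in Namalwa, 162 to 206 in Reh and 58.6 to 81.1 with PMA. Not every marker followed that sum: POU2AF1 was at 20.3 and 19.4 FPKM in L1236 against 20.4 and 11.7 in Reh, and BCL11A at 13.7 and 7.96 in KM-H2 against 10.9 and 8.57 in Namalwa. Precursor B markers summed to 1111 to 1197 in Reh, 124 to 131 with PMA and 128 to 136 in Namalwa, and to under 1 in the cHL lines. Germinal centre markers summed to 252 to 270 in Namalwa, 197 to 217 in Reh, 77.2 to 80.1 with PMA, 97.0 to 100.1 in L428 and at most 8.03 in KM-H2 and L1236. Myeloid and NK marker sums were at most 35.9 and 13.4 in any library. In Reh, DNTT and RAG1 were present and VPREB1 and CD34 were listed at 0 in both libraries. The libraries were not uniform: 4 of the 12 (library 1 of L1236, library 1 of L428 and both of PMA-treated Reh) had median ribosomal protein gene levels of 7.96 to 9.28 on the log2(FPKM + 1) scale, against 10.18 or more in the other 8. Both PMA libraries and neither untreated Reh library are of this kind. Library 1 of each cHL line held 30.8% to 42.4% of its FPKM in small RNA genes, against 11.5% to 21.8% in the other libraries. Since 13 genes stood at 0 in 1 library and at 10 FPKM or more in the other 11, a value of 0 is given only as listed at 0. FPKM values carry no read counts, so the depth behind each value is unknown.

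CD79A and CD79B, the signalling subunits of the receptor, were abundant in every control library and close to the bottom of the scale in the cHL lines. CD79A was at 168 and 287 FPKM in Namalwa (libraries 0 and 1) and at 336 and 429 FPKM in Reh. Its cHL values were 0 and 2.55 FPKM in KM-H2, 0.609 and 0.794 in L1236, and 0.536 and 0.154 in L428. The highest cHL library thus lay far below the lowest control library. CD79B was at 591 and 889 FPKM in Namalwa and at 394 and 414 in Reh. Among the cHL lines CD79B was listed at 0 in both L428 libraries and reached 0.313 in KM-H2 library 1, 0.303 and 0.592 in L1236, and 0 in KM-H2 library 0. Between L1236 and Reh, the FPKM means of CD79A differed 545-fold and those of CD79B 902-fold, and against Namalwa the folds were 324 and 1653. These folds rest on cHL values under 1 FPKM and are imprecise. In bulk RNA, fewer cells with a transcript and less transcript in each cell cannot be told apart.

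**Figure D1:**
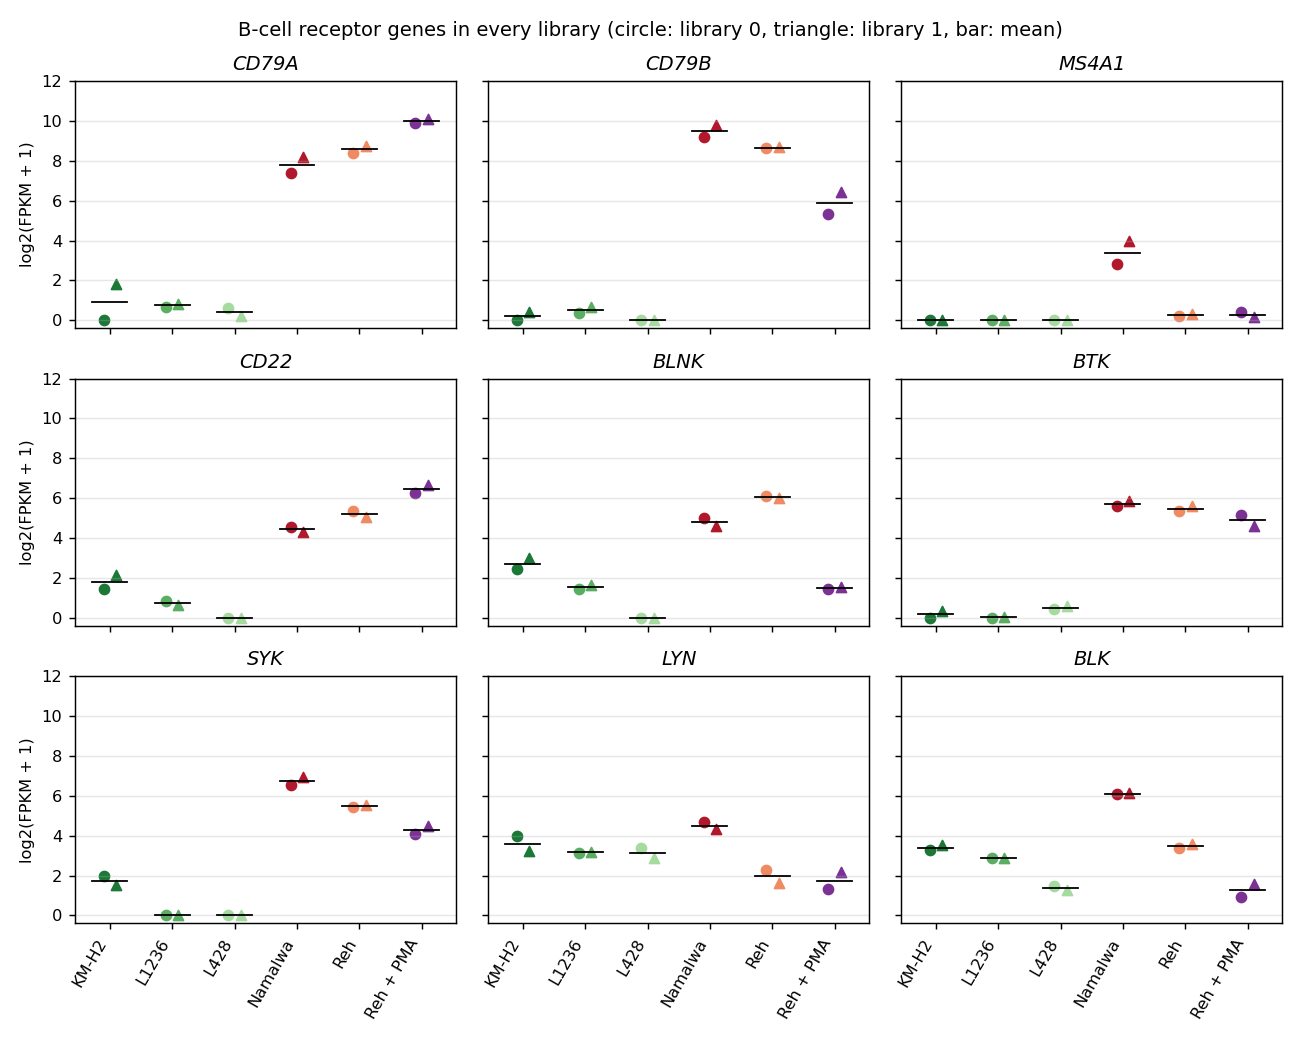
Expression of the 9 genes on the log2(FPKM + 1) scale (vertical axis) in the 6 conditions (horizontal axis), with a circle for library 0, a triangle for library 1 and a bar at the mean of both. CD79A, CD79B, CD22, BLNK, BTK and SYK sit lower in the 3 cHL lines than in Namalwa and Reh, with BLNK above the bottom of the scale in KM-H2 and L1236, LYN has signal in all lines, and CD79B and BLNK drop in Reh with PMA while CD79A does not.

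The surface proteins MS4A1 and CD22 differed in how they were expressed in the control lines. MS4A1 was listed at 0 in all 6 cHL libraries, was at 0.161 and 0.229 FPKM in Reh and was at 5.98 and 14.6 FPKM in Namalwa. It therefore passed 1 FPKM only in the Burkitt line, with low values in the precursor line, and was listed at 0 in the cHL lines. CD22 was at 22.7 and 19.0 FPKM in Namalwa and at 39.4 and 32.6 FPKM in Reh. CD22 in the cHL lines was at 1.75 and 3.44 FPKM in KM-H2, 0.827 and 0.581 in L1236, and was listed at 0 in both L428 libraries. The groups did not overlap for CD22, with KM-H2 the highest of the cHL lines.

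The adaptor BLNK and the kinases SYK and BTK were lower in every cHL library than in any untreated control library, BTK with almost no signal and BLNK with some in KM-H2 and L1236. BTK, the Tec-family kinase, stayed under 0.5 FPKM in every cHL library: 0 and 0.284 in KM-H2, 0 and 0.0359 in L1236, and 0.351 and 0.487 in L428. In the control lines BTK was at 47.0 and 57.0 FPKM in Namalwa and at 39.8 and 47.2 in Reh. BTK and CD79B were the members under 1 FPKM in all 6 cHL libraries and at 10 FPKM or more in all 4 untreated control libraries, a pattern also held by 0.163% of the tested genes (24 genes). The filter admits such genes only through conditions other than the cHL lines, and nothing is read from that share. SYK was at 91.1 and 120 FPKM in Namalwa and at 43.1 and 44.8 FPKM in Reh. SYK in the cHL lines was at 2.89 and 1.90 in KM-H2, 0 and 0.00927 in L1236, and listed at 0 in both L428 libraries. Signal from SYK above 1 FPKM was thus seen in KM-H2 and not in the other two cHL lines. BLNK was at 31.7 and 23.6 FPKM in Namalwa, at 67.4 and 63.0 in Reh, at 4.49 and 6.93 in KM-H2, at 1.70 and 2.18 in L1236 and at 0 in both L428 libraries. BLNK therefore kept the most signal of this group in a cHL line, again in KM-H2.

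LYN and BLK, the Src-family kinases at the start of the cascade, had measurable levels in every line. LYN was at 14.7 and 8.41 FPKM in KM-H2, at 7.68 and 8.22 in L1236 and at 9.43 and 6.28 in L428. In the controls it was at 24.8 and 19.0 FPKM in Namalwa and at 3.89 and 2.12 FPKM in Reh, so the cHL lines lay between the control lines, below Namalwa and above Reh. BLK was at 66.8 and 68.6 FPKM in Namalwa, at 9.32 and 11.1 in Reh, at 8.75 and 10.4 in KM-H2, at 6.36 and 6.31 in L1236 and at 1.81 and 1.45 in L428. BLK libraries of KM-H2 and Reh overlapped, and L428 lay below all others but PMA-treated Reh.

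The first comparison asked how the cHL lines as a group differ from the control lines. Of the 9 members, 8 were called lower in the cHL lines, against 10.9% of all 14679 genes tested, and 0 were called higher (13.7% of all genes). Leaving out MS4A1, whose difference from Namalwa the filter built in, it was 7 of 8. Of the 5 members that reached 1 FPKM in at least 2 cHL libraries (CD22, BLNK, SYK, LYN and BLK), 4 were called lower. No share of all genes was computed under that same choice, and the 10.9% is over all genes tested. A gene was called where limma gave a Benjamini-Hochberg adjusted p under 0.05 and a difference of at least 2-fold on the log2(FPKM + 1) scale, a scale that understates the change of genes close to 0. Of those 5 members, the kinase SYK differed the most, at -5.52 (SE 0.15, adjusted p = 2.4481e-08). BLNK and CD22 differed by -4.01 and -3.97 (adjusted p = 1.0425e-07 and 2.1372e-07). BLK differed by less, at -2.24 (adjusted p = 2.7406e-06). The values of CD79B, CD79A, BTK and MS4A1 differed by -8.84, -7.48, -5.36 and -1.82. They are given as a description because the filter admitted these genes through the control lines or, for all but MS4A1, PMA-treated Reh. In a fit with no filter on level, which takes any gene above 0 in at least 1 library and which CD79B, CD79A and BTK enter through cHL libraries too, limma gave adjusted p = 2.7426e-07, 1.6599e-06 and 3.5165e-07. LYN was not called, with a difference of 0.06 and a 95% confidence interval of -0.49 to 0.61 (limma, adjusted p = 0.849). The median difference was -4.01 over the 9 members, -3.97 over those 5, and 0.02 over all genes tested.

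The libraries of the cHL and control lines were also compared without a model. In 7 of the 9 members, all but LYN and BLK, the 6 cHL libraries lay below the 4 untreated control libraries, as in 8.06% of all genes tested. Of the 5 members at 1 FPKM in at least 2 cHL libraries, 3 did so, and no share of all genes was computed under that choice. The limma p-values cover the spread between the libraries of a line and not the spread between lines. With lines as the units, the two-sided exact permutation test of 3 line means against 2 gave p = 0.2 for every member but LYN (p = 1.0), and 0.2 is the smallest p that this form of the test, which doubles the one-sided p, can give here.

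Each cHL line was then set against each control line, as the study did. Against Reh, 6 members were called lower in KM-H2 and 6 in L1236, where 15.5% and 14.9% of all genes were, and 7 in L428 (14.8%). They were CD79A, CD79B, CD22, BLNK, BTK and SYK in all of these comparisons, with BLK added in L428. Against Namalwa, 8 members were called lower in KM-H2 (13.0% of all genes) and all 9 in L1236 (12.9%) and in L428 (13.7%). MS4A1 is counted among the calls against Namalwa, which the filter built in, and without it they were 7 of 8 in KM-H2 and 8 of 8 in L1236 and L428. Its values differed by -3.38 from Namalwa in each cHL line. Over the 5 members at 1 FPKM in at least 2 cHL libraries, the calls lower against Namalwa were 4 in KM-H2, 5 in L1236 and 5 in L428. Those against Reh were 3, 3 and 4. No share of all genes was computed under that choice. Of these 5, CD22 and SYK reached 1 FPKM among the cHL lines only in KM-H2, and BLNK in no L428 library. The L1236 and L428 counts thus include members under 1 FPKM in that line. Against Reh, MS4A1 differed by -0.26 with a 95% confidence interval of -0.94 to 0.43 and was not called, but with a pseudocount of 0.1 it was called lower in all 3 cHL lines (-1.55, adjusted p = 0.0229 to 0.0242). BLK fell below Namalwa by 2.70 in KM-H2, 3.23 in L1236 and 4.71 in L428. Against Reh BLK differed by -0.09 in KM-H2 (95% confidence interval -0.62 to 0.45) and by -0.61 in L1236 (adjusted p = 0.0685), neither of them called, and was lower by -2.09 in L428 (limma, adjusted p = 9.8565e-05).

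**Figure D2:**
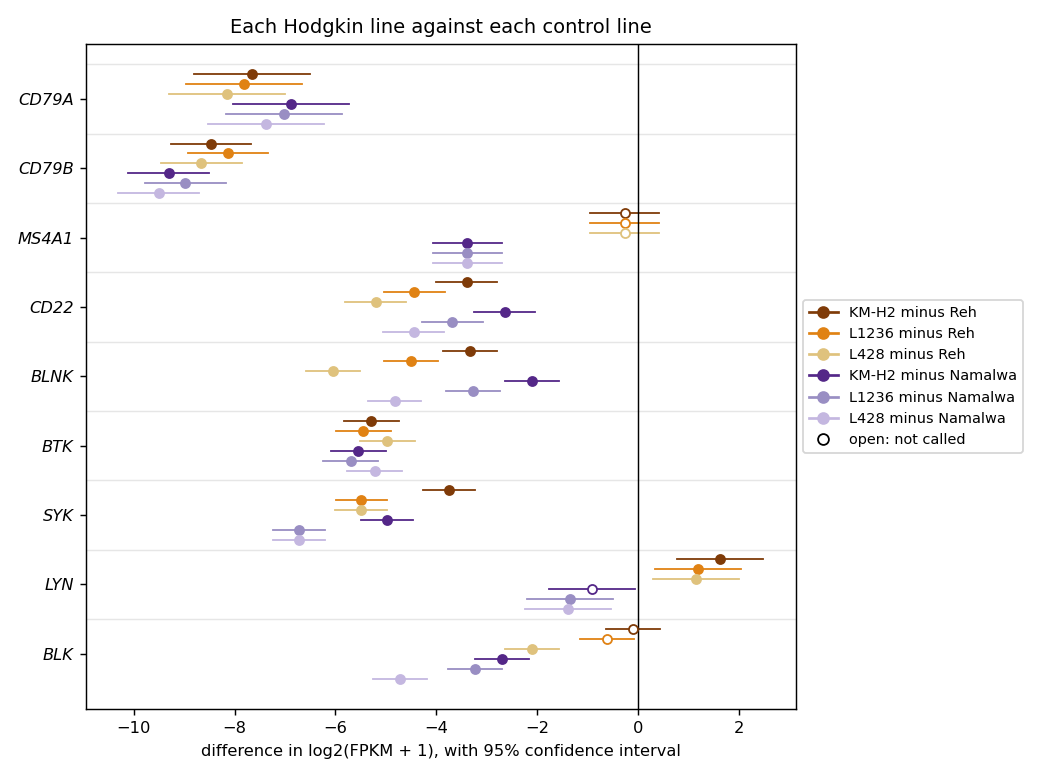
Difference in log2(FPKM + 1) (horizontal axis) of each cHL line from Reh (brown to sand) and from Namalwa (purple shades) for each of the 9 genes, with 95% confidence intervals from limma and open points where the difference was not called. LYN is right of 0 against Reh and left of 0 against Namalwa, MS4A1 is near 0 against Reh, and CD79A and CD79B lie farthest to the left.

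LYN was the member whose direction depended on the control line. It was called higher than in Reh in KM-H2 (1.64, adjusted p = 0.00669), L1236 (1.20, adjusted p = 0.0309) and L428 (1.16, adjusted p = 0.0353), where 17.2%, 15.8% and 15.6% of all genes were. It was called lower than in Namalwa in L1236 (-1.34, adjusted p = 0.0192) and L428 (-1.38, adjusted p = 0.0161) and not in KM-H2 (-0.90, adjusted p = 0.0865), all by limma. Many of these calls did not survive leaving out 1 library, in some cases with a difference as large and a wider error. Without Reh library 1 the calls against Reh were lost, at 1.31 in KM-H2, 0.87 in L1236 and 0.83 in L428 (adjusted p = 0.0611, 0.199 and 0.221). Against Reh, L1236 lost its call without its own library 1 (1.15, adjusted p = 0.112) or library 0 (1.24, adjusted p = 0.0865), and L428 without its library 0 (0.90, adjusted p = 0.163). Against Namalwa, the call was lost without Namalwa library 0 in L1236 (-1.16, adjusted p = 0.103) and in L428 (-1.20, adjusted p = 0.0899). L1236 also lost the Namalwa call without its library 1 (-1.39, adjusted p = 0.0665) or library 0 (-1.30, adjusted p = 0.0757), and L428 lost it without its library 1 (-1.12, adjusted p = 0.102). KM-H2 gained a call against Namalwa without its library 0 (-1.27, adjusted p = 0.0485). Over all alternatives the adjusted p against Reh ran from 0.00438 to 0.0611 in KM-H2, 0.016 to 0.199 in L1236 and 0.0267 to 0.221 in L428. The ranges against Namalwa were 0.0485 to 0.393, 0.00763 to 0.103 and 0.0124 to 0.122.

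Among the cHL lines, the means of BLNK, CD22, SYK and BLK were highest in KM-H2 and lowest in L428. In L428, 5 members (CD79B, MS4A1, CD22, BLNK and SYK) were listed at 0 in both libraries, while in KM-H2 and in L1236 only MS4A1 was. Under 1 FPKM in both libraries stood 7 members in L428, 6 in L1236 and 3 in KM-H2. BLNK was higher in KM-H2 than in L1236 by 1.17 (limma, adjusted p = 0.00399) and than in L428 by 2.72 (adjusted p = 2.6469e-05). SYK was higher in KM-H2 than in either, by 1.74 (adjusted p = 0.000296) and 1.75 (adjusted p = 0.000318). CD22 was higher by 1.04 over L1236 (adjusted p = 0.0142) and by 1.81 over L428 (adjusted p = 0.000727), and BLK was higher than in L428 by 2.01 (adjusted p = 0.000175). KM-H2 against L1236 thus had 3 members called higher (13.5% of all genes) and KM-H2 against L428 had 4 (13.7%). L428 against L1236 had 2 members called lower (10.9% of all genes): BLK by -1.48 (adjusted p = 0.00138) and BLNK by -1.55 (adjusted p = 0.00103). With a pseudocount of 0.1 this count was 5, with CD22, CD79B and BTK added, and without the cHL libraries of low ribosomal protein level the calls over all genes in this comparison were 1953 in place of 3216, a setting that leaves 1 library in each line and takes the spread from the other conditions. Without KM-H2 library 1, BLNK (0.91, adjusted p = 0.0244) and CD22 (0.69, adjusted p = 0.0823) were no longer called between KM-H2 and L1236, and CD22 was not called without L1236 library 1 (0.94, adjusted p = 0.0829). Without KM-H2 library 0, CD79A was called higher in KM-H2 than in L428 (1.41, adjusted p = 0.0176). Such values from a condition left with 1 library assume that it varies like the other conditions. CD22 was called between KM-H2 and L1236 in 14 of 20 alternatives. Over all alternatives the adjusted p ran from 0.00296 to 0.0428 for BLNK and from 0.00487 to 0.0941 for CD22 in KM-H2 against L1236, and from 0.0176 to 0.856 for CD79A in KM-H2 against L428. KM-H2 also had the CD3D and CD3G signal given above, with TRAT1 listed at 0, and its part in these differences was not tested.

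Namalwa and Reh, which stand for a germinal centre type lymphoma and a precursor leukaemia, were compared with each other. Namalwa had 4 members called higher (7.50% of all genes) and 1 called lower (11.5%). MS4A1, tested only through Namalwa, is one of them (3.13), and without it 3 of 8 were called higher. These were BLK by 2.62 (limma, adjusted p = 3.8606e-05), LYN by 2.54 (adjusted p = 0.000919) and SYK by 1.23 (adjusted p = 0.0033). BLNK was lower, by -1.22 (adjusted p = 0.00437). BTK differed by 0.25 (adjusted p = 0.55), CD79A by -0.78 (adjusted p = 0.333), CD79B by 0.84 (adjusted p = 0.124) and CD22 by -0.76 (adjusted p = 0.0716), all without a call. LYN, BLK and SYK were thus called higher in Namalwa, and neither receptor subunit was called. Without either Namalwa library MS4A1 reached 1 FPKM in 1 library only and was not tested.

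The adaptor BLNK, the receptor subunit CD79B and the kinases BLK and SYK were lower in PMA-treated than in untreated Reh. The list of 7 known PMA response genes, such as EGR1 and DUSP6, summed to 101 to 130 FPKM in untreated Reh and to 681 to 816 FPKM with PMA. Of the 9 members, 4 were called lower (11.8% of all genes) and 1 higher (10.5%), the latter a share close to that of all genes. BLNK was at 1.68 and 1.90 FPKM with PMA against 67.4 and 63.0 without, which was the largest fall (-4.57, limma adjusted p = 3.8783e-06) and 36.4-fold between the means. CD79B fell to 39.0 and 86.2 FPKM from 394 and 414, a difference of -2.78 (adjusted p = 0.000583) and 6.45-fold. BLK fell to 0.910 and 1.97 FPKM from 9.32 and 11.1 (-2.23, adjusted p = 0.000221). SYK fell to 16.2 and 21.2 FPKM from 43.1 and 44.8 (-1.20, adjusted p = 0.00439), a 2.35-fold difference. In none of these genes did the PMA and untreated libraries overlap.

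CD22 was the member called higher after PMA, at 74.9 and 101 FPKM against 39.4 and 32.6 (1.26, limma adjusted p = 0.00769), and it lost the call without Reh library 1 (1.12, adjusted p = 0.0626) or without PMA library 1 (1.04, adjusted p = 0.0575). CD79A was at 947 and 1102 FPKM with PMA against 336 and 429 without, a 2.68-fold difference of the means, but was not called (1.43, adjusted p = 0.0602). Its adjusted p ran from 0.00349 to 0.405 over 19 alternatives, 5 of which passed the threshold. They were quantile normalization (2.00, adjusted p = 0.0103), the compared conditions only (adjusted p = 0.00349) and the library suffix as a block (adjusted p = 0.038). The others were leaving out KM-H2 library 1 or library 0, with the difference still at 1.43. CD79A and CD79B therefore lay on opposite sides of their untreated levels after PMA. BTK was at 34.8 and 23.7 FPKM (-0.58, adjusted p = 0.0987), LYN at 1.48 and 3.46 (-0.23, adjusted p = 0.722) and MS4A1 at 0.328 and 0.116 (0.03, adjusted p = 1), none of them called.

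**Figure D3:**
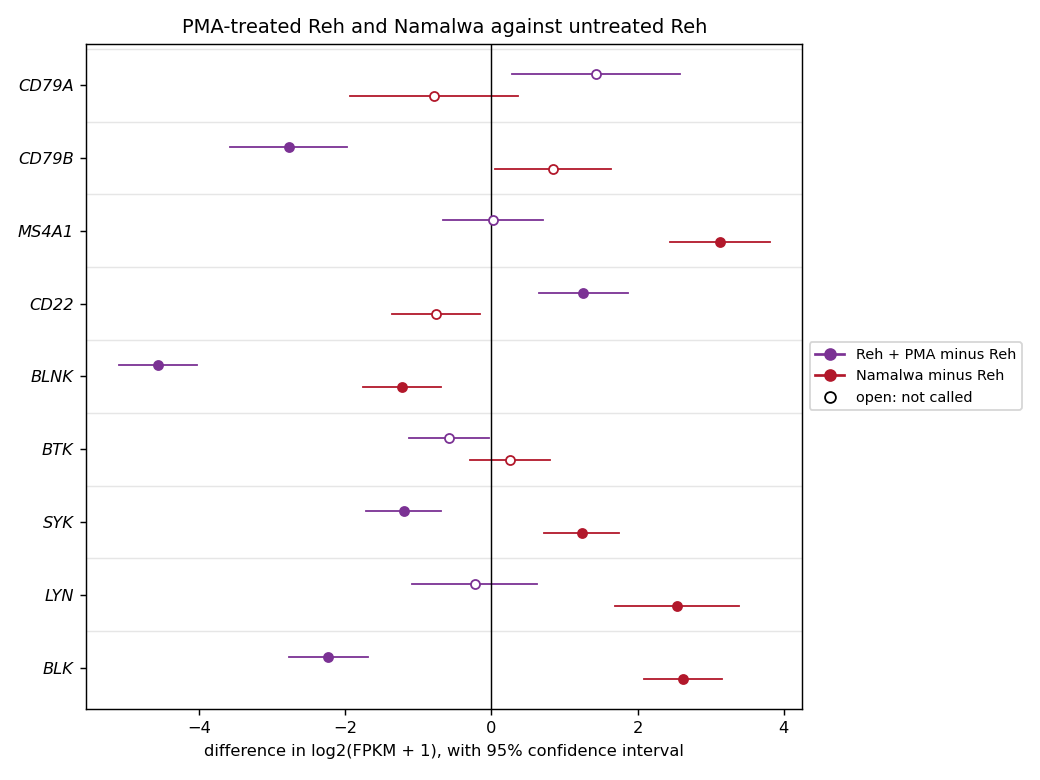
Difference in log2(FPKM + 1) (horizontal axis) of PMA-treated Reh and of Namalwa from untreated Reh for the 9 genes, with 95% confidence intervals from limma and open points where not called. With PMA, BLNK, CD79B, BLK and SYK lie to the left and CD22 to the right, whereas Namalwa lies to the right for MS4A1, BLK, LYN and SYK.

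Both PMA libraries had low ribosomal protein gene levels and both untreated Reh libraries did not, so the library kind and the treatment cannot be told apart in Reh. A term for library kind can be estimated only within L1236 and L428, where CD79A, CD79B, CD22 and SYK were under 1 FPKM and BLNK was at 0 in L428, and gives no check of these genes. BLK, which had signal in both lines, differed by -2.13 with that term (limma, adjusted p = 0.0051). Over the other 18 alternatives the calls of BLNK, CD79B, BLK and SYK held, with highest adjusted p-values of 0.000186, 0.011, 0.00411 and 0.0429, and that of CD22 ran from 0.00225 to 0.0626. Between the 2 libraries of L1236, which are of opposite kinds, BLK differed by -0.01 on the log2 scale, and between those of L428 by -0.20. The effector PLCG2 was at 298 to 404 FPKM in the other 8 libraries and at 0.817, 4.26, 2.42 and 2.61 in the 4 low ones, a difference present within L1236 and L428, and its difference with PMA (-6.60, adjusted p = 0.0574) was not called.

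The ratio of the receptor subunits, which are assembled as a pair, was taken within each library from FPKM, which is scaled per length. CD79B over CD79A was 3.51 and 3.10 in Namalwa, 1.17 and 0.966 in Reh, and 0.0412 and 0.0782 in PMA-treated Reh. By FPKM the transcripts of the subunits were thus near equal in Reh, with CD79B above CD79A in Namalwa and below it after PMA. No protein was measured, and both PMA libraries are of the low ribosomal protein kind. L1236 gave 0.497 and 0.746 and KM-H2 library 1 gave 0.123, all from values of a few FPKM or less, and L428 and KM-H2 library 0 gave none because CD79B was listed at 0. LYN over BLK was 0.371 and 0.277 in Namalwa and 0.418 and 0.190 in Reh, so that BLK exceeded LYN in the untreated control lines. In the cHL lines it was 1.68 and 0.809 in KM-H2, 1.21 and 1.30 in L1236 and 5.21 and 4.34 in L428, and in PMA-treated Reh 1.63 and 1.75. LYN exceeded BLK in 5 of the 6 cHL libraries and in both PMA libraries.

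**Figure D4:**
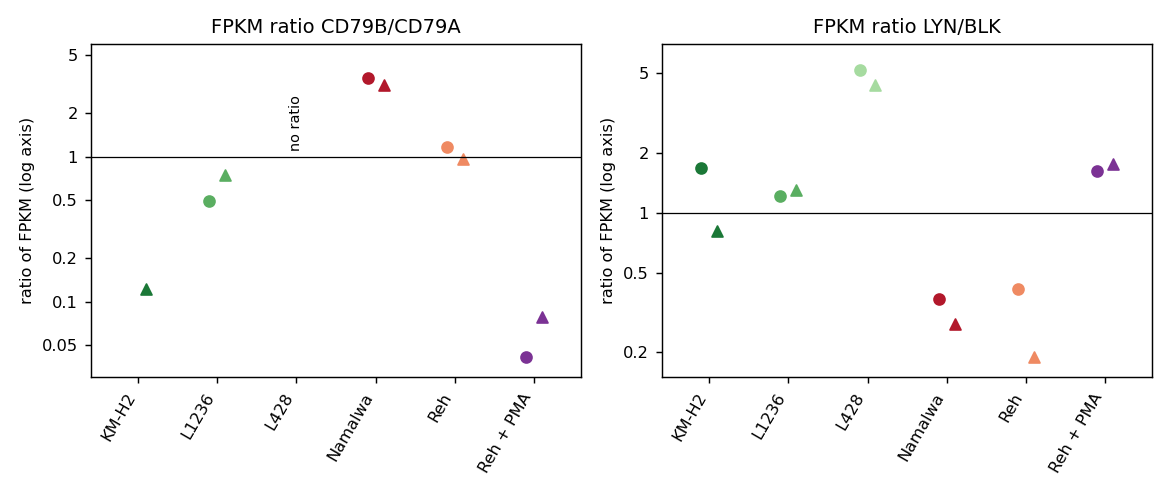
Ratio of FPKM within each library (vertical log axis) for CD79B over CD79A (left) and LYN over BLK (right) by condition, with circles for library 0 and triangles for library 1. CD79B over CD79A falls from above 3 in Namalwa to below 0.1 in Reh with PMA, and LYN over BLK lies below 1 in Namalwa and untreated Reh.

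The members were set beside a list of 67 further symbols of the B-cell receptor pathway, of which 64 are in the table and 63 were tested. In the cHL lines against the controls, 32 were called lower (50.8%, against 10.9% of all genes), 5 higher (7.94%, against 13.7%) and 26 not, with a median of -1.16. The members' median was -4.01 and that of all genes 0.02. By role, the genes called lower were 5 of 7 coreceptor and surface genes, 5 of 9 adaptors, 6 of 21 effectors, 5 of 7 other Src-family and Syk-family kinases, 6 of 14 negative regulators, and all 5 tested surrogate light chain and immunoglobulin genes. These counts include genes that the filter admitted through the control conditions, among them IGLL1 and JCHAIN. Of the 47 that reached 1 FPKM in at least 2 cHL libraries, 18 were called lower (38.3%) and 5 higher. This choice leaves out genes at the bottom of the scale in cHL, and no share of all genes was computed under it. Among the largest differences downward were those of IGLL1, the surrogate light chain (-7.31), VPREB3 (-6.00), the inhibitory adaptor DOK3 (-4.88) and JCHAIN, which joins polymeric immunoglobulin (-4.72). JCHAIN was near 0 in Reh (0.165 and 0 FPKM), so its difference rests on Namalwa. The largest differences upward were those of DAPP1, an adaptor of phosphoinositide signals (2.67), the calcium channel ITPR1 (1.91), the complement receptor CR2 (1.86), UBASH3A (1.76) and the adhesion receptor PECAM1 (1.74). DAPP1 was at 17.6 to 47.9 FPKM in the cHL lines, 15.9 and 18.3 in Namalwa and 0.0369 and 0 in Reh. CR2 and UBASH3A came from KM-H2, at 231 and 97.7 FPKM and at 28.8 and 19.4 FPKM, and PECAM1 from L1236, at 32.0 and 17.5 FPKM. IGLL1, JCHAIN and DOK3 were admitted by the filter through control libraries, UBASH3A through KM-H2 and PECAM1 through L1236, and their differences are given as a description. The calls of VPREB3, DAPP1, ITPR1 and CR2 had a limma adjusted p of at most 0.000102 (CR2).

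In PMA-treated Reh, 13 of the 63 pathway genes were called lower (20.6%, against 11.8% of all genes), 10 higher (15.9%, against 10.5%) and 40 not. The median was -0.04 over the list and -0.03 over all genes tested. The genes called lower included 5 of 14 negative regulators and 3 of 9 adaptors, and the genes called higher included 6 of 21 effectors. Among the genes called, the largest falls were of LAIR1, an inhibitory collagen receptor (-3.72), IGLL1 (-3.20), the phosphatase UBASH3B (-2.64), the exchange factor VAV3 (-2.59) and the scaffold GAB1 (-2.58). Among the largest rises were those of the Src-family kinase YES1 (2.95), the transcription factor NFATC1 (2.32) and BCL10 (1.99), an adaptor that acts downstream of protein kinase C. YES1 rose to 116 and 94.7 from 11.7 and 13.7 FPKM. In Namalwa against Reh, 13 of the list were called lower (20.6%, against 11.5% of all genes) and 21 higher (33.3%, against 7.50%), among the latter 6 of 7 coreceptor and surface genes. The genes called higher include the surface gene CD180 and BANK1, FGR, VPREB1, JCHAIN and SLA. These reached 1 FPKM only in Namalwa, so that their difference was in part built in by the filter and the counts are a description.

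**Figure D5:**
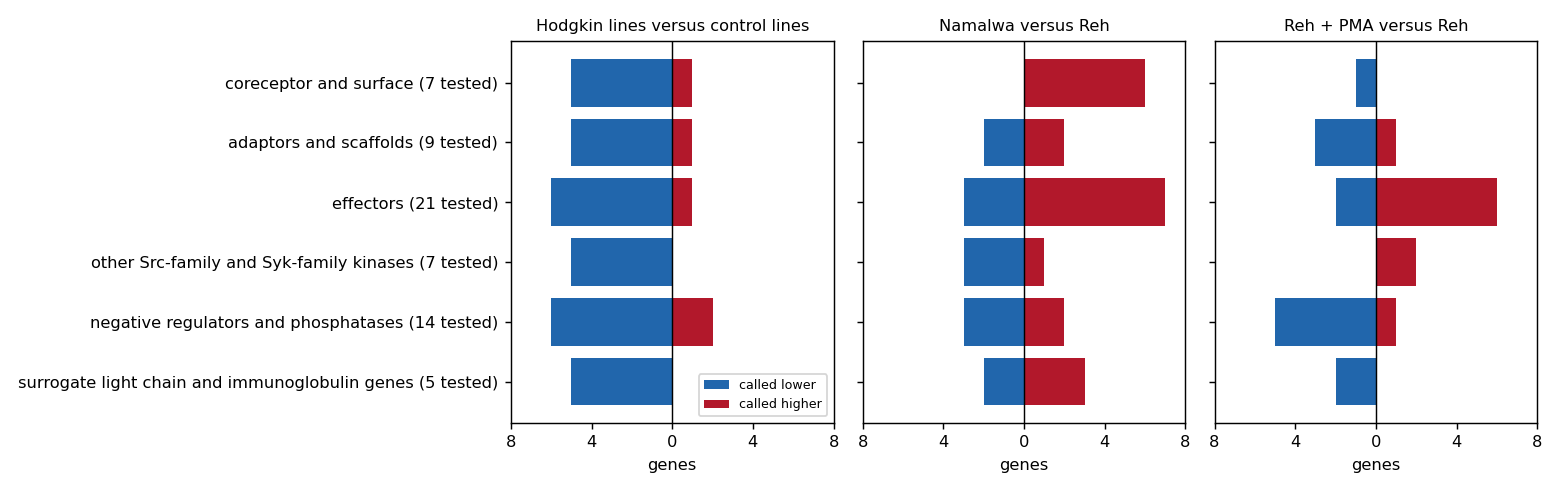
Number of pathway genes called lower (blue, to the left) and higher (red, to the right) by role in 3 comparisons, with the number tested in brackets. In the cHL lines every role has more genes called lower than higher, whereas in PMA-treated Reh the effectors have 2 called lower and 6 higher.

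Across the 12 libraries, the levels of the members on the log2(FPKM + 1) scale were compared with each other and with all genes tested, as a description, since libraries of a line are not independent. The members most alike were CD79B and BTK (r = 0.975), CD79A and CD22 (r = 0.974) and CD79B and SYK (r = 0.968). LYN ranged from an r of -0.42 with CD22 and -0.40 with CD79A to 0.57 with MS4A1 and 0.67 with BLK. The genes most like CD79A were ZNF440 (r = 0.993), PTPRCAP (0.988) and APP (0.988), and those most like CD79B were SLC17A9 (0.995), ZNF525 (0.995) and ZNF141 (0.994). BTK was most like SPI1 (0.995), ZNF20 (0.989) and ZNF525 (0.989), and SYK most like RELL1 (0.991), SLC15A3 (0.982) and ID3 (0.981). MS4A1 was most like CBR1, LAMP5 and FGR, all at r = 0.994. The nearest genes were less close for CD22 (GSPT2 0.979, DBN1 0.976 and CD79A 0.974), BLNK (NOL4 0.962, DERL3 0.960 and EBPL 0.947), LYN (DOCK9 0.946, TPCN1 0.945 and CEP126 0.935) and BLK (VNN2 0.975, RFC3 0.967 and FAM53B 0.964). A high r here mainly records which lines have a gene and which do not.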

How the data were processed

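RNA-Seq was analysed from 12 libraries of 6 conditions. The authors aligned reads with TopHat2 2.0.11 to hg19 and made a gene table with Cuffnorm 2.2.1, per the labels, and deposited FPKM, which is scaled for gene length and library size. Columns name the condition but no replicate number of the labels. All 12 columns were used. Nothing says that the 2 libraries of a condition came from separate cultures, so p-values measure only the spread between these libraries, which may be technical.

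Values were tested as log2(FPKM + 1) for 14679 genes at 1 FPKM or more in at least 2 libraries. The 6 condition means were fitted together with limma 3.58.1 (R 4.3.3) with a trend of the spread with level, and p-values were adjusted by Benjamini and Hochberg over all genes tested. The script was also tested on simulated data with known changes, which enter no value given here. Calls needed adjusted p under 0.05 and 2-fold. Alternatives were a pseudocount of 0.1, no filter, no trend, quantile normalization, the compared conditions only and leaving out each library. Added after seeing the data were the column suffix as a block, a term for library kind, and leaving out cHL libraries with low ribosomal protein genes. The members and lists were chosen with earlier results of these data known. Named were every member called, the 5 largest rises and falls of the pathway list, and the 3 genes most like each member, except that some genes of the pathway list are not reported here. Marker lists covered B lineage, precursor B, germinal centre, Hodgkin, T cell, myeloid and NK genes and PMA response. IGHM and IGHD were not analysed here, and IGJ is an older symbol of JCHAIN, which was.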

Additional observations from a re-analysis of the deposited data

Results flagged for a closer look

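The cHL lines differed among themselves in how far 4 members lay from the shared control lines, by the limma test of the lines against each other. For BLNK the differences on the log2(FPKM + 1) scale were 1.17 for KM-H2 minus L1236, 2.72 for KM-H2 minus L428 and -1.55 for L428 minus L1236. For CD22 they were 1.04 for KM-H2 minus L1236 and 1.81 for KM-H2 minus L428. For SYK the same pairs gave 1.74 and 1.75. For BLK they were 2.01 for KM-H2 minus L428 and -1.48 for L428 minus L1236. Each group is 1 cell line, and L428 values at 0 make the size of these differences depend on the pseudocount.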

How the results depend on the processing

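No paired analysis was possible because the columns of the table carry no replicate number of the labels, where paired means matched by those labels. Libraries could be matched by the column suffix instead, but nothing says that this suffix marks a shared culture or day. The column suffix, added as a block after seeing the data, changed 1 of the member calls: CD79A became called higher with PMA (1.43, adjusted p = 0.038). Libraries with the same suffix deviated from their condition means with correlations of 0.30 to 0.68 among the cHL lines and 0.36 between Namalwa and Reh, and of -0.04 to 0.19 otherwise.

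Of 2100 values of members under alternatives, 2061 kept their side of the threshold, 26 lost a call, 13 gained one and 0 changed direction while called. With a pseudocount of 0.1, 5 members in place of 2 were called between L428 and L1236, with BTK, CD22 and CD79B added, and MS4A1 became called lower than in Reh in all 3 cHL lines (-1.55). The all-gene count for L428 against L1236 was 1953 in place of 3216 without the low ribosomal protein cHL libraries. In that setting LYN was called against neither control line in L1236 or L428, with adjusted p from 0.0623 to 0.122 and differences of 1.15 and 1.42 from Reh and -1.39 and -1.12 from Namalwa, from fewer libraries. When either Namalwa library was left out, MS4A1 missed the filter.

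Leaving out 1 library at a time, where the lone library of a condition is assumed to vary like the other conditions, gave these counts of genes called: 3416 to 3798 for the cHL lines against the controls, 4115 to 4827 for KM-H2 against Reh, 3782 to 4503 for KM-H2 against Namalwa, 3793 to 4576 for L1236 against Reh, 3578 to 4391 for L1236 against Namalwa, 3708 to 4731 for L428 against Reh, 3839 to 4852 for L428 against Namalwa and 2077 to 2841 for Namalwa against Reh. PMA gave 1968 to 3395, with 3265 in the full set, 2092 without Reh library 0 and 1968 without PMA library 0. Between cHL lines the counts were 3253 to 3969 (KM-H2 and L1236), 3249 to 4238 (KM-H2 and L428) and 2511 to 3306 (L428 and L1236). Members called ranged from 7 to 8 for cHL against controls, 4 to 6 for PMA, 1 to 3 for KM-H2 against L1236 (1 without KM-H2 library 1), 4 to 5 for KM-H2 against L428 and 4 to 5 for Namalwa against Reh.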

Other observations

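Other kinases of the Src and Syk families, chosen after their values were seen, were distributed unevenly among the cHL lines. ZAP70, the Syk-family kinase of T cells, was at 6.80 and 8.67 FPKM in KM-H2 and at most 0.414 FPKM in any other library. YES1 was at 14.4 and 13.1 FPKM in L428, at 6.52 and 7.37 in L1236 and at 0.117 and 0.928 in KM-H2. FYN was at 14.5 and 13.3 FPKM in L428, at 6.20 and 10.4 in KM-H2 and at 0.232 and 0.537 in L1236. After PMA, Reh had FYN at 37.2 and 30.8 FPKM, against 12.6 and 12.9 without.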
